A study of Homo sapiens with 6 samples.

Results

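NFE2L2, which encodes the transcription factor NRF2, its inhibitor KEAP1 and 8 antioxidant genes that NRF2 is known to switch on (NQO1, TXNRD1, TXN, SRXN1, SLC7A11, SLC3A2, PRDX1 and OSGIN1) were followed in a lung cancer cell line under 2 culture conditions. The 10 genes were taken by symbol from a deposited table of 60504 genes, in which each symbol stood on 1 row. RNA came from HCC827, an established human lung adenocarcinoma line with mutant EGFR, and all libraries were from this single line. For 2D culture, 1000000 cells were put into an uncoated flask and kept for 4 to 6 days. For 3D culture, 50000 monolayer cells were suspended in a droplet of growth factor reduced Matrigel, a gel of basement membrane proteins, and kept as tumoroids for 12 to 16 days. Both cultures received the same medium with 10% fetal bovine serum, penicillin and streptomycin, and each contributed 3 libraries of poly(A) RNA. Where cultures were passaged, monolayers were released with TrypLE, and tumoroids with Dispase plus a Rock inhibitor before TrypLE. Time in culture, seeding number, contact with gel and passaging agents changed together with geometry, so their contributions cannot be told apart. The labels do not name separate cultures for the replicates, so p-values cover only the spread between these libraries, which may be technical.

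NRF2 binds antioxidant response elements in DNA as a pair with a small MAF protein. In unstressed cells KEAP1 holds NRF2 for ubiquitination by a CUL3 ligase, and the protein is degraded. Oxidants and electrophiles modify cysteines of KEAP1, NRF2 accumulates, and genes for quinone reduction, thioredoxin, glutathione and NADPH supply are transcribed. KEAP1 and NFE2L2 are recurrently mutated in lung cancer. Because this control acts mainly on the protein, the RNA levels of NFE2L2 and KEAP1 do not measure NRF2 activity. RNA of target genes reads that activity only indirectly, and no protein was measured here.

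The letters around the transcription starts are shown because NRF2 acts through a short DNA motif near its targets. RefSeq start windows of 300 bases (250 before the start and 50 after it, build GRCh38.p14) were held for 8 of the 10 genes, in 13 windows; SLC7A11 and PRDX1 had none in the table used here. The core of the antioxidant response element, TGACNNNGC on either strand, was found in 4 of the 13 windows, belonging to TXNRD1, SLC3A2 and KEAP1. It was found in 13.3% of 35116 windows over all genes. The 6 matches follow, each with 12 bases on either side, 5′ to 3′ on the strand of the gene, the match in capitals and its first base given relative to the start site.
TXNRD1 at -99 (chr12:104215668-104215700, plus strand): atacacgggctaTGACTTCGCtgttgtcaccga
TXNRD1 at -8 (chr12:104215759-104215791, plus strand): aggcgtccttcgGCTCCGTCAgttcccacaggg
TXNRD1 at -102 of a second start (chr12:104286918-104286950, plus strand): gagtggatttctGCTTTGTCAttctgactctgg
SLC3A2 at -37 (chr11:62881650-62881682, plus strand): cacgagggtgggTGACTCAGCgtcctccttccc
KEAP1 at -54 (chr19:10502805-10502837, minus strand): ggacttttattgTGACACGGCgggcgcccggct
KEAP1 at -31 (chr19:10502782-10502814, minus strand): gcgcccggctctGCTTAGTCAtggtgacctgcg
The SLC3A2 match overlaps TGANTCA, the core of AP-1 sites, which was found in 7.71% of all windows and also in the window of OSGIN1. A match describes letters only; binding was not measured.

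The windows of NFE2L2 and NQO1, whose RNA differed most between the cultures in opposite directions, held neither motif. These windows reach only 250 bases before a start, so a motif farther away would not be found, and its absence is not shown. The 100 bases before their starts are printed with the GC box GGGCGG, searched on both strands, in capitals.
NFE2L2 (chr2:177264728-177264827, minus strand): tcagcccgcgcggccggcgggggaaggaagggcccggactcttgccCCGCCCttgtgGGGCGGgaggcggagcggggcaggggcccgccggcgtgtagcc
NFE2L2, second start (chr2:177264132-177264231, minus strand): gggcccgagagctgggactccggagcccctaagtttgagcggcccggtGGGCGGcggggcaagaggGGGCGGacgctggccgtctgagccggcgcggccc
NQO1 (chr16:69726561-69726660, minus strand): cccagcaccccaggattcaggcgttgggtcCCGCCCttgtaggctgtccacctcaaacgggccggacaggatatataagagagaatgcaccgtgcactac
These stretches hold 2 GC boxes at each NFE2L2 start and 1 at the NQO1 start. The GC box was chosen after the values were seen, and 45% of all windows of 300 bases hold it.

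The values are TPM, each gene's share of the transcripts in a library corrected for gene length and scaled to a total of 1000000, so levels of different genes can be compared within a library. TPM keeps no sequencing depth, and no counting error is given. The mitochondrial genome's share was 12.3% to 19.4% in 3D and 14.4% to 17.5% in 2D. The epithelial and lung markers EPCAM, KRT8, KRT18, KRT19, CDH1, NKX2-1, NAPSA and EGFR were present in every library, with summed levels of 4704 to 8403 TPM in 3D and 6843 to 9204 in 2D. Of 13 fibroblast, leukocyte and endothelial markers, 11 lay under a mean of 1 TPM, and their sum was 10.7 to 16.7 TPM in 3D and 5.55 to 6.68 in 2D, most of it COL1A1, which was called higher in 3D, and CD14, which was not; their part in the results below was not tested. COL3A1 was listed at 0 in all 6 libraries. In each group the library numbered 3 held the highest or lowest value of the group for 9 of the 10 genes. This was also so for 75% of all tested genes in 3D and 76.4% in 2D. In 2D, replicate 1 likewise held an extreme value for 9 of the 10 genes (63.7% of all tested genes).

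NFE2L2 RNA was higher in 3D, whereas KEAP1 RNA did not pass the test. NFE2L2 (ENSG00000116044, chr2:177227595-177392697, minus strand) had 161, 135 and 111 TPM in 3D and 66.6, 70.5 and 80.5 TPM in 2D. Every 3D library lay above every 2D library. The means were 136 ± 24.6 and 72.5 ± 7.16 TPM (SD, n = 3 each), a ratio of 1.87. The log2 fold change of TPM + 1 was 0.88 with an SE of 0.16, and limma, a linear model fitted to each gene with a spread shared across genes, gave an adjusted p = 0.0172. Of 15042 tested genes 10.2% were called higher in this way, and 92.1% had a smaller log2 fold change than NFE2L2. The call was lost when replicate 1 or 2 of 3D (limma, adjusted p = 0.0751 and 0.0746) or of 2D (0.059 and 0.0719) was left out, with log2 fold changes of 0.76 to 0.88. Without both libraries numbered 3 the log2 fold change was 1.09 (limma, adjusted p = 0.00704). In bulk RNA, more RNA in each cell and more cells that express the gene cannot be told apart.

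KEAP1 (ENSG00000079999, chr19:10486120-10503741, minus strand) had 38.0, 46.0 and 42.8 TPM in 3D and 41.1, 34.1 and 35.6 TPM in 2D. The groups overlapped, since 2D replicate 1 lay above 3D replicate 1. The log2 fold change was 0.19 with a 95% confidence interval of -0.13 to 0.51 (limma, adjusted p = 0.372), and it was 0.04 under median-ratio scaling. Inhibitor RNA per regulator RNA was lower in the 3D libraries: KEAP1 TPM divided by NFE2L2 TPM was 0.237, 0.34 and 0.384 in 3D and 0.617, 0.483 and 0.442 in 2D. The ranges did not overlap, with means of 0.32 ± 0.0756 and 0.514 ± 0.0915 (SD, n = 3 each). The ratio is a description without a test, and it shares its NFE2L2 values with the result above.

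NQO1, an NAD(P)H quinone reductase and the gene most often used to read NRF2 activity, had the most negative value of the 10. NQO1 (ENSG00000181019, chr16:69706996-69726951, minus strand) had 278, 108 and 416 TPM in 3D and 690, 781 and 682 TPM in 2D. All 3D libraries lay under all 2D libraries, but they differed among themselves by 3.87-fold, against 1.15-fold in 2D. Only 1.82% of tested genes had a wider range on the log2 scale in 3D. The means were 267 ± 154 TPM in 3D and 718 ± 55.3 TPM in 2D (SD, n = 3 each), and the log2 fold change was -1.62 with an SE of 0.43 and a 95% confidence interval of -2.63 to -0.61. This missed the threshold by a small margin (limma, unadjusted p = 0.00623, adjusted p = 0.0503), so NQO1 is not counted as lower. Of all tested genes 0.293% had a lower log2 fold change.

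The side of the threshold on which NQO1 fell differed between settings, and 7 of 18 alternatives called it lower (limma, adjusted p from 0.0211 to 0.15 over the 18). It was called with a stricter filter (mean of at least 5 TPM), with median-ratio scaling, with totals that omit mitochondrial genes or the 50 most abundant genes, with a replicate block, and without 3D replicate 3 or both libraries numbered 3. Without 3D replicate 2, the library with the lowest NQO1, the log2 fold change was -1.07 (adjusted p = 0.058), which is more than 1.5 times smaller in size than with it. Without 3D replicate 3 it was -2.04 (adjusted p = 0.0239).

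**Figure D1:**
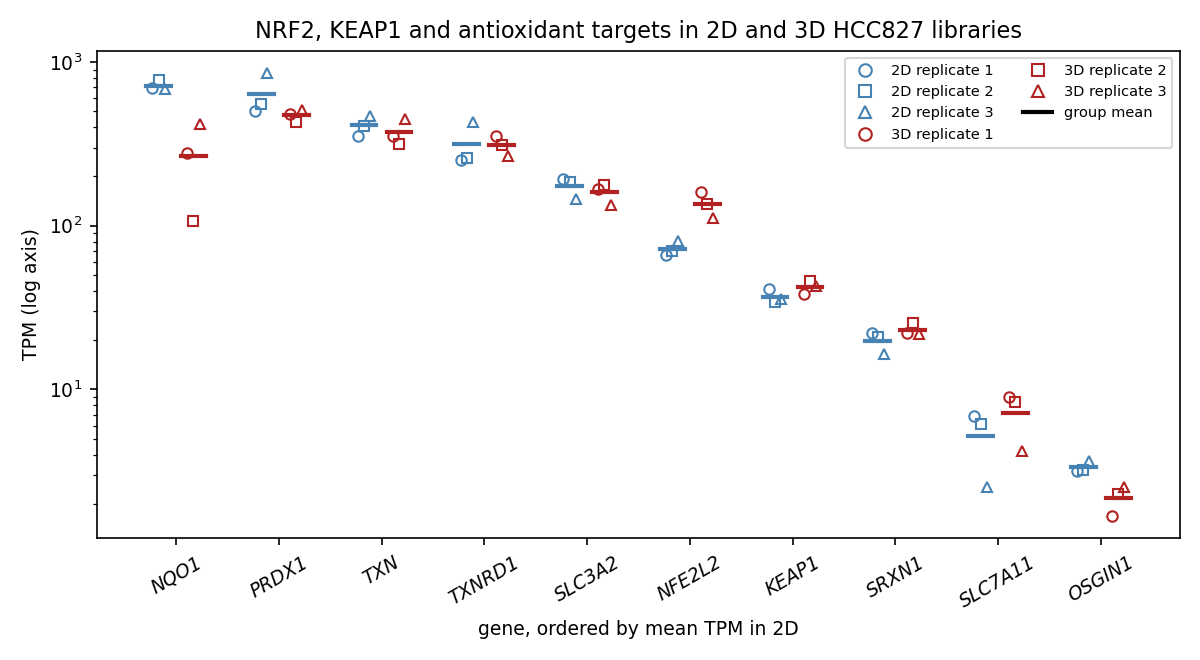
TPM on a log axis for each of the 10 genes in each library, 2D in blue and 3D in red, with the replicate number as the symbol and the group mean as a bar. NFE2L2 lies higher in all 3D libraries, NQO1 and OSGIN1 lie lower in all 3D libraries, and the other 7 genes overlap.

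**Figure D2:**
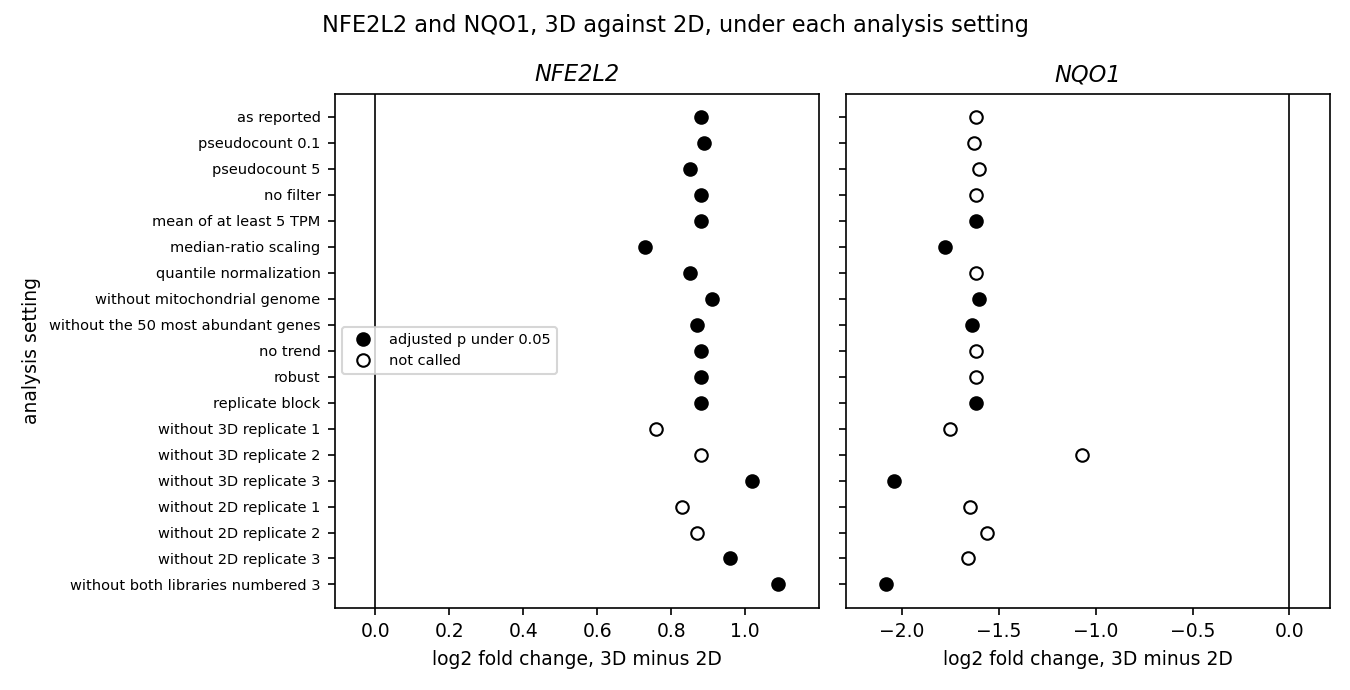
Log2 fold change (3D minus 2D) of NFE2L2 and NQO1 on the x axes under each analysis setting on the y axis; filled points have an adjusted p under 0.05. NFE2L2 ranges from 0.73 to 1.09 and NQO1 from -2.08 to -1.07.

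The thioredoxin system reduces disulfides in proteins with electrons from NADPH, and none of its 4 genes followed here passed the test. TXN, the small redox protein thioredoxin (chr9:110243811-110256640, minus strand), had 355, 318 and 448 TPM in 3D and 356, 405 and 468 TPM in 2D. Its groups overlapped, and the log2 fold change was -0.14 with a 95% confidence interval of -0.54 to 0.27. With single libraries left out it ranged from -0.28 (3D replicate 3) to -0.03 (3D replicate 2), and under median-ratio scaling it was -0.29. TXNRD1, the selenoprotein that recharges thioredoxin (chr12:104215779-104350305, plus strand), had 353, 312 and 268 TPM in 3D and 253, 258 and 432 TPM in 2D. The highest and the lowest TXNRD1 values were both in 2D, the highest in replicate 3. Its log2 fold change was 0.02 (95% confidence interval -0.51 to 0.55) and changed sign with scaling: -0.13 under median-ratio scaling and -0.01 under quantile normalization. With 2D replicate 3 left out the TXNRD1 log2 fold change was 0.27, and with both libraries numbered 3 left out it was 0.38. It was -0.07 with 3D replicate 1 left out, -0.11 with 2D replicate 1 left out and -0.10 with 2D replicate 2 left out, and none of these values was called (limma, adjusted p from 0.0579 to 0.985 over 18 alternatives).

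PRDX1, an abundant peroxiredoxin that thioredoxin reduces after it has destroyed hydrogen peroxide (chr1:45511036-45523047, minus strand), had 484, 431 and 507 TPM in 3D and 504, 555 and 858 TPM in 2D. The 3D libraries lay close together and 2D replicate 3 stood far above the rest; 3D replicate 3 lay just above 2D replicate 1, so the groups overlapped. The log2 fold change was -0.39 (95% confidence interval -0.88 to 0.10; limma, adjusted p = 0.242), and without 2D replicate 3 it was -0.16. SRXN1, sulfiredoxin, which repairs over-oxidized peroxiredoxins (chr20:646615-653370, minus strand), had 22.0, 25.4 and 21.7 TPM in 3D and 22.3, 20.9 and 16.4 TPM in 2D. Its groups overlapped, with a log2 fold change of 0.21 (95% confidence interval -0.15 to 0.57), which was 0.09 with 2D replicate 3 left out and 0.06 under median-ratio scaling. TXNRD1 per TXN was 0.995, 0.984 and 0.597 in 3D and 0.712, 0.638 and 0.922 in 2D, so this ratio overlapped too. A pseudogene of a ribosomal protein gene, RPL18AP3, lies inside TXNRD1 on the same strand with a mean of 500 TPM, and AGPS and MMACHC overlap NFE2L2 and PRDX1 on the opposite strand with 21.4 and 13.0 TPM. The sources used here name the program RSEM and a directional library, but not the strand setting or annotation release. How reads were divided among these overlapping genes is therefore uncertain, and so are these levels.

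Cystine import supplies cysteine for glutathione through a transporter of 2 chains, and neither gene passed the test. SLC7A11, the light chain xCT that carries cystine (chr4:138164097-138242349, minus strand), had 9.03, 8.33 and 4.20 TPM in 3D and 6.92, 6.11 and 2.53 TPM in 2D. Replicate 3 was lowest in both cultures, by more than the difference between the group means of 7.19 ± 2.61 and 5.19 ± 2.34 TPM (SD, n = 3 each). The log2 fold change was 0.43 with a 95% confidence interval of -0.43 to 1.29 (limma, adjusted p = 0.456). Its size depended on single libraries, from 0.07 with 2D replicate 3 left out to 0.73 with 3D replicate 3 left out, and it was 0.26 with 3D replicate 1 left out; none of these was called. SLC3A2, the heavy chain that takes this and other light chains to the cell surface (chr11:62856102-62888875, plus strand), had 168, 178 and 133 TPM in 3D and 194, 185 and 145 TPM in 2D. Its groups overlapped, with a log2 fold change of -0.13 (95% confidence interval -0.52 to 0.27). With single libraries left out this ranged from -0.26 (2D replicate 3) to -0.00 (3D replicate 3), and under median-ratio scaling it was -0.28. Heavy chain RNA was far more abundant than xCT RNA in every library: SLC7A11 TPM divided by SLC3A2 TPM was 0.0537, 0.0468 and 0.0316 in 3D and 0.0357, 0.033 and 0.0175 in 2D. The 2 ranges overlapped, and replicate 3 had the lowest ratio of its group each time.

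OSGIN1, an NRF2 target linked to growth inhibition under oxidative stress (chr16:83948282-83966332, plus strand), had 1.68, 2.29 and 2.54 TPM in 3D and 3.17, 3.21 and 3.66 TPM in 2D. All 3D libraries lay under all 2D libraries at this low level. The log2 fold change was -0.46 (SE 0.19, 95% confidence interval -0.91 to -0.02), which did not pass adjustment over all genes (limma, unadjusted p = 0.0422, adjusted p = 0.144). AC009119.2, a gene model on the same strand, overlaps OSGIN1 and had a mean of 3.27 TPM, so the division of reads between them is uncertain.

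Over the 10 genes, 1 was called higher (NFE2L2) and none was called lower in 3D by limma, where 10.2% and 2.12% of all tested genes were called in these directions. All 10 passed the filter at a mean of 1 TPM, so no gene was left out. At an unadjusted p under 0.05 by limma, 3 of the 10 passed (NFE2L2, NQO1 and OSGIN1), beside 4727 of all 15042 tested genes. NQO1 and OSGIN1 had negative log2 fold changes. The 3D libraries lay wholly above the 2D libraries for 1 gene and wholly under them for 2, against 27.3% and 9.40% of all tested genes (36.7% in either direction). Of the 10 log2 fold changes 5 were negative and 5 positive, with a median of -0.05, beside 0.12 over all tested genes.

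**Figure D3:**
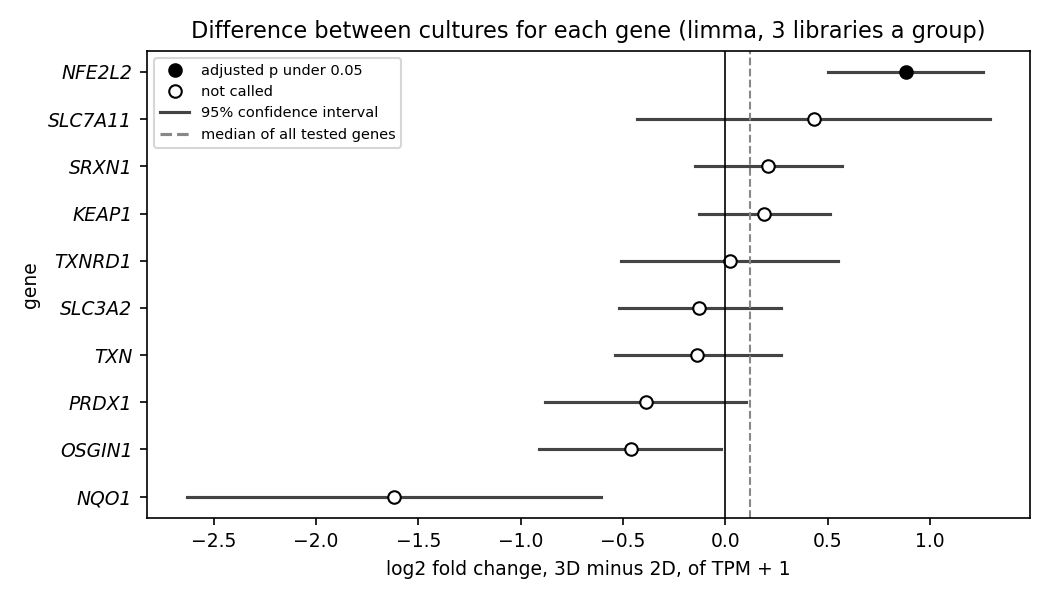
Log2 fold change of TPM + 1 (3D minus 2D, x axis) with its 95% confidence interval for each of the 10 genes; the filled point is called and open points are not, and the dashed line is the median of all tested genes at 0.12. Only the intervals of NFE2L2, NQO1 and OSGIN1 do not include 0.

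The order of levels changed at NQO1. In 2D the genes ran from NQO1 at 718 TPM through PRDX1 at 639, TXN at 410, TXNRD1 at 314, SLC3A2 at 175, NFE2L2 at 72.5, KEAP1 at 36.9, SRXN1 at 19.8 and SLC7A11 at 5.19 to OSGIN1 at 3.35 TPM. In 3D the order was PRDX1 (474 TPM), TXN (374), TXNRD1 (311), NQO1 (267), SLC3A2 (160), NFE2L2 (136), KEAP1 (42.3), SRXN1 (23.0), SLC7A11 (7.19) and OSGIN1 (2.17). Library values of neighbours in that order overlapped for NQO1 and PRDX1, TXN and TXNRD1, and SLC7A11 and OSGIN1 in 2D, and for PRDX1 and TXN, TXN and TXNRD1, TXNRD1 and NQO1, NQO1 and SLC3A2, and SLC3A2 and NFE2L2 in 3D. NQO1 thus went from rank 1 to rank 4 of the 10. The summed level of the 10 genes was 1870, 1563 and 1954 TPM in 3D and 2137, 2320 and 2724 TPM in 2D. With NQO1 left out, the sums were 1592, 1456 and 1538 TPM in 3D and 1447, 1538 and 2042 TPM in 2D, and the 2 groups overlapped.

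Other genes of the pathway were read from 8 lists with 96 different genes, of which 90 were tested. Of these, 6 were called higher and 8 lower in 3D (6.67% and 8.89%, beside 10.2% and 2.12% of all tested genes), and the median log2 fold change was -0.11. The lists were chosen with earlier results of these data known, and some of their genes were known to be lower in 3D, so the counts are not independent support for a direction.

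Partners and competitors of NRF2 were among the genes that rose. Of 16 genes for partners, competitors and degradation factors, 3 rose (18.8%, against 10.2% of all tested genes) and the other 13 did not pass the test. The median log2 fold change was 0.24, and 8 genes (50%) had all 3D libraries above all 2D libraries, against 27.3% of all tested genes. MAFF and MAFK, small MAF proteins that pair with NRF2 or with repressors on the same DNA element, rose: MAFF had 36.3, 39.0 and 30.5 TPM in 3D and 19.4, 12.5 and 9.17 in 2D. MAFK had 34.0, 47.7 and 21.4 TPM in 3D and 14.1, 9.94 and 10.2 in 2D. By limma their log2 fold changes were 1.35 (SE 0.25) and 1.46 (SE 0.28), with adjusted p = 0.0172 and 0.0199. BACH1, a repressor that occupies antioxidant response elements in place of NRF2, had 27.8, 35.8 and 17.4 TPM in 3D and 11.6, 9.95 and 10.1 in 2D (log2 fold change 1.22, SE 0.25, adjusted p = 0.0222). In all 3 genes the 3D libraries lay wholly above the 2D libraries, and 3D replicate 3 was the lowest of its group. Each lost its call with no filter and on leaving out any one of 3D replicates 1 and 2 and 2D replicate 2; BACH1 also lost it on leaving out 2D replicate 1. The highest adjusted p by limma was 0.0897 for MAFK, 0.0833 for MAFF and 0.0987 for BACH1. The CUL3 ligase scaffold that acts with KEAP1 had 60.6 ± 5.17 TPM in 3D and 62.2 ± 4.03 in 2D. SQSTM1, an autophagy receptor that binds KEAP1, had 180 ± 48.0 and 201 ± 90.3 TPM (SD, n = 3 each). These last 2 genes were chosen after their values were seen.

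NADPH is an electron source for both NQO1 and thioredoxin reductase. Each of the 5 genes read for NADPH supply and the pentose phosphate pathway was lower in every 3D library than in any 2D library. This was so for 9.40% of all tested genes. By the test 1 of the 5, TALDO1, fell (20%, against 2.12% of all tested genes). The other 4 (TKT, PGD, ME1 and IDH1) did not pass, and the median log2 fold change of the 5 was -0.51. TKT, the transketolase, named after its values were seen, had 509, 482 and 503 TPM in 3D and 1340, 1176 and 627 in 2D (limma, adjusted p = 0.0521). TALDO1, a transaldolase, fell from 133 ± 5.55 to 86.6 ± 14.3 TPM (log2 fold change -0.63, SE 0.15; limma, adjusted p = 0.0336). That call was lost with no filter and on leaving out any single library numbered 1 or 2, with limma's adjusted p reaching 0.129.

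Among conjugation, detoxification and export targets, GPX2, AKR1B10 and ABCC2 fell. Of 10 glutathione genes 1 fell (10%, against 2.12% of all tested genes) and the other 9 did not pass, with a median log2 fold change of -0.49. Of 15 tested detoxification and export genes 2 fell (13.3%) and the other 13 did not pass, with a median of -0.40. All 3D libraries lay under all 2D libraries for 4 of the glutathione genes (40%) and 8 of the detoxification and export genes (53.3%). Of all tested genes 9.40% did so. The reverse held for 1 gene of each list, GCLC (10%) and AKR1C1 (6.67%), against 27.3% of all tested genes. Both were named after their values were seen, and neither was called (limma, adjusted p = 0.0607 and 0.143). GCLC had 40.6, 35.8 and 27.8 TPM in 3D and 23.8, 18.9 and 23.9 in 2D. The peroxidase GPX2 had 10.5, 6.62 and 14.2 TPM in 3D and 101, 92.8 and 40.4 in 2D, the reductase AKR1B10 had 2.43, 1.78 and 4.23 against 20.3, 29.5 and 15.3 TPM, and the exporter ABCC2 had 17.8, 14.2 and 19.8 against 42.6, 44.8 and 49.7 TPM. These 3 were called lower under each of the 18 alternatives (limma, adjusted p up to 0.0455, 0.0302 and 0.0261). ALDH3A1, AKR1C2, CES1 and UGT1A6 lay under the filter. AKR1C3 stands on 2 rows under separate identifiers, and the row with the higher mean was used. That row had no coordinates in the annotation used here. It counts among the 8 detoxification and export genes wholly lower in 3D. How reads were divided between the 2 rows is uncertain.

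**Figure D4:**
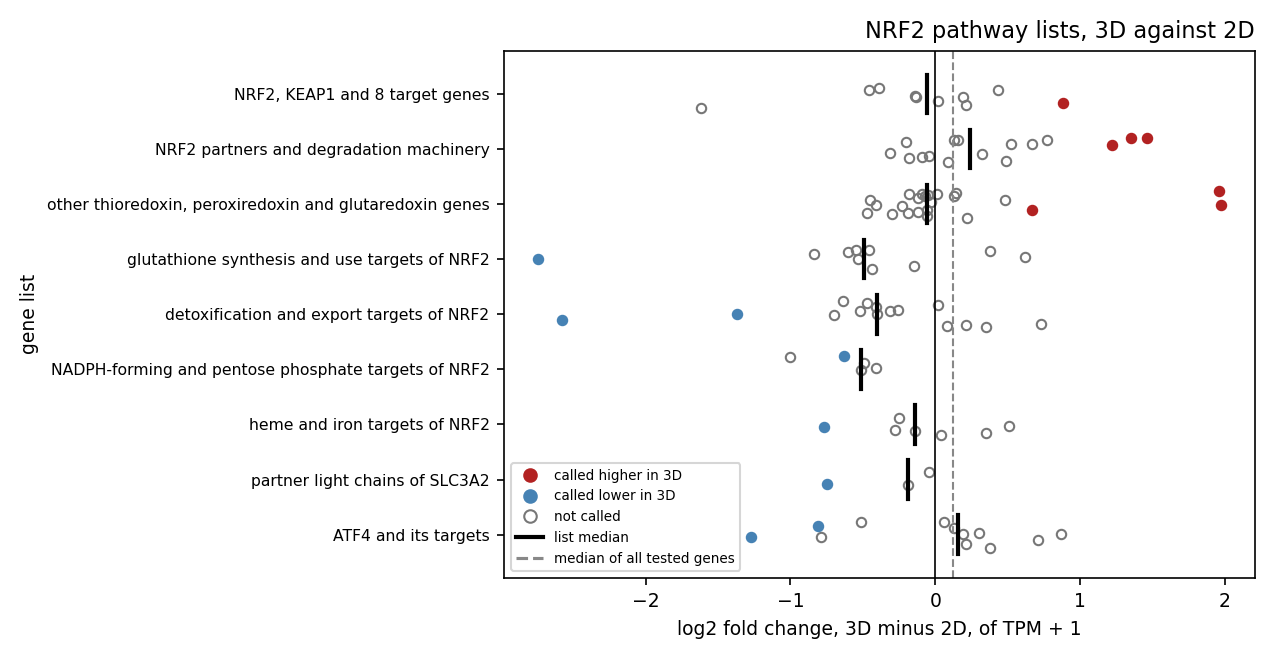
Log2 fold change of TPM + 1 (3D minus 2D, x axis) of each tested gene in the 10-gene set and in 8 pathway lists (y axis), with called genes filled, list medians as black bars and the median of all tested genes as a dashed line. Filled points lie to the right in the top 3 rows (NFE2L2 alone in the first) and to the left in the other 6 rows.

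Of 23 other thioredoxin, peroxiredoxin and related antioxidant genes 3 rose (SOD2, SESN3 and PRDX4), a share of 13% near the 10.2% of all tested genes. The other 20 did not pass, and the median log2 fold change was -0.06. SOD2, the mitochondrial superoxide dismutase, had 334, 409 and 167 TPM in 3D and 56.4, 49.7 and 132 in 2D (limma, 1.97 on the log2 scale with SE 0.44, adjusted p = 0.0296), with replicate 3 of each group nearest to the other group. SESN3, a sestrin, had 5.33, 4.05 and 3.93 TPM in 3D and 0.23, 0.33 and 0.65 in 2D (1.96, SE 0.22), and PRDX4, the peroxiredoxin of the endoplasmic reticulum, had 126, 137 and 168 against 78.6, 87.9 and 103 TPM (0.67, SE 0.16). SESN3 kept its call in each of the 17 alternatives in which it was tested, though at this low level its log2 fold change was 3.25 with a pseudocount of 0.1 and 0.80 with one of 5. SOD2 lost it in 5 of 18, with no filter and on leaving out any single library numbered 1 or 2, where limma's adjusted p reached 0.121. PRDX4 lost it in 8 of 18, which were these 5, median-ratio scaling, no trend and leaving out 3D replicate 3, where it reached 0.119.

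Among iron and amino acid supply genes, FTL, SLC7A5, PHGDH and PSAT1 fell. Of 7 heme and iron genes 1 fell (14.3%, against 2.12% of all tested genes) and the other 6 did not pass. Their median log2 fold change was -0.14, beside 0.12 over all tested genes. The ferritin light chain FTL fell from 928, 953 and 1279 TPM in 2D to 547, 626 and 664 TPM in 3D (limma, -0.77 on the log2 scale with SE 0.17, adjusted p = 0.0285). The ferritin chains have many processed copies in the genome, and reads shared with these are uncertain. HMOX1, the heme oxygenase that NRF2 induces and BACH1 represses, named after its values were seen, had 11.1, 11.2 and 11.0 TPM in 3D and 6.13, 5.62 and 12.0 in 2D; 2D replicate 3 lay above all 3D libraries, so the groups overlapped. Of the light chains that share SLC3A2 with xCT, 3 were tested and 1 fell (33.3%, against the same 2.12%). SLC7A5, a carrier of large neutral amino acids, had 65.2, 74.7 and 78.7 TPM in 3D and 137, 118 and 116 in 2D (limma, -0.75 on the log2 scale with SE 0.13, adjusted p = 0.0152). SLC7A11 and SLC3A2 are also targets of ATF4, the factor of the amino acid response. Of 12 genes of that response 2 fell (16.7%) and the other 10, ATF4 among them, did not pass, with a median of 0.16. PHGDH and PSAT1, enzymes of serine synthesis, fell with log2 fold changes of -1.27 (SE 0.20) and -0.81 (SE 0.16). FTL and PSAT1 lost their calls with no filter and on leaving out any single library numbered 1 or 2, SLC7A5 on leaving out any one of the same 4 libraries, and PHGDH on leaving out 3D replicate 1. The highest adjusted p by limma was 0.126, 0.0889, 0.0752 and 0.0608 in that order.

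Genes with the most similar profiles were looked up over the 6 libraries among 8074 protein-coding genes averaging 10 TPM or more, by Pearson's r of log2(TPM + 1), as a description with no test. The 6 points share their libraries and fall into 2 culture groups. For NFE2L2 they were CYCS (r = 0.993), GBP1 (0.992) and ZNF267 (0.992), and for NQO1 CHCHD1 (0.992), HACL1 (0.990) and NDUFB9 (0.990). For KEAP1 they were GNA12 (0.997), MAP2K7 (0.990) and PKD1 (0.989), and for TXNRD1 UGDH (0.998), NUP50 (0.995) and UCHL5 (0.980). UGDH, which makes UDP-glucuronate for conjugation and stands in the detoxification list, had 97.9, 89.6 and 81.1 TPM in 3D and 75.5, 77.8 and 116 in 2D. Like TXNRD1, it was highest in 2D replicate 3, as were NUP50 and UCHL5. These genes were picked for their likeness to TXNRD1, so the shared library is not a separate result.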

How the data were processed

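TPM values, rounded to 2 decimals, stood in 1 table that the authors deposited. The submitters' processing notes name cutadapt 2.3 together with STAR 2.7.0d, RSEM 1.3.1 and the build hg38; the annotation release, strand setting and filters were, however, not given in the sources used here. Per the labels' protocols, RNA with an integrity number above 9 went into a directional poly(A) library read as 75 nt. TPM is a share, so a rise of some genes lowers the rest.

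The fit, limma 3.58.1 (eBayes with a trend, R 4.3.3) on log2(TPM + 1), covered the 15042 genes that averaged 1 TPM or more over 6 libraries. It compared 3D with 2D, two-sided and without covariates; p-values were adjusted by Benjamini-Hochberg across these genes, with a threshold of 0.05. Fold changes on this scale understate those of low genes. An exact test of 3 against 3 cannot go below p = 0.1. The 10 genes, the lists and the alternatives were chosen with earlier results of these data known. All 10 genes were named, with up to 4 called genes per list; exceptions are stated where they occur. One listed gene is not reported here. Gene coordinates are from GENCODE 29 (GRCh38), motif windows from RefSeq. Figures used matplotlib 3.10.9.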

Additional observations from a re-analysis of the deposited data

How the results depend on the processing

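Besides the analysis reported, 18 alternatives were run. TPM gives no depth, so what depth limits could not be assessed, and with 3 libraries a group single libraries moved most counts. Over all genes, 1536 were higher and 319 lower; the counts were 729 and 86 without the filter, 971 and 612 under median-ratio scaling (61.3% of calls higher, against 82.8%) and 869 and 576 under quantile normalization (60.1%), which moved the median gene from 0.12 to -0.01 and -0.04. Leaving out both libraries numbered 3 gave 2289 higher and 1239 lower (64.9% of calls higher). Leaving out single libraries gave 331 to 1610 higher and 25 to 553 lower. Of the 10 genes, 0 to 1 were called higher when single libraries were left out. The count called lower was 0 as reported and 1 (NQO1) with a filter at a mean of 5 TPM, under median-ratio scaling, without mitochondrial genes, without the 50 most abundant genes, with the replicate block and without both libraries numbered 3, and 0 to 1 without single libraries. Of the pathway genes, 1 was higher and 5 were lower without the filter, 11 were higher and 19 lower without both libraries numbered 3, and 15 were lower under median-ratio scaling; single libraries left out gave 1 to 8 higher and 3 to 15 lower. The cause was not tested. TXNRD1, close to 0 as reported, changed sign to -0.13 under median-ratio scaling and -0.01 under quantile normalization, was -0.07, -0.11 and -0.10 without 3D replicate 1, 2D replicate 1 and 2D replicate 2, and lay between -0.11 and 0.27 over all single libraries left out. The other 9 genes kept their direction (SLC3A2 came to -0.00 in one alternative) under each alternative in which they were tested.

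Replicate numbers were not shown to pair the libraries: deviations of same-numbered libraries correlated at 0.101, 0.036 and 0.185 over genes. The 3D replicates 2 and 3 correlated best with the 2D library of their own number, 0.185 being the highest of the 9 values, whereas 3D replicate 1 correlated best with 2D replicate 2 (0.127). With the replicate block 1479 genes were higher and 395 lower. Among the 10 genes the only call that changed was that of NQO1 (limma log2 fold change -1.62, adjusted p = 0.0368). SLC7A11 had an adjusted p = 0.138 by limma with the block, against 0.456 without it.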
